A study of Mus musculus with 12 samples.

Results

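The subunits of the mitochondrial respiratory chain were taken by gene name from a read-count table of mouse RNA. They are the Nduf genes of complex I, Sdha to Sdhd of complex II, the Uqcr genes and Cyc1 of complex III, the Cox4i, Cox5, Cox6, Cox7 and Cox8 genes of complex IV, the Atp5 genes of complex V, and the protein genes of mitochondrial DNA. The names gave 98 of 55137 entries, 85 encoded in the nucleus and 13 in mitochondrial DNA, after 8 entries with pseudogene names were dropped. Ndufa4 and its relative Ndufa4l2 were counted with complex IV, to which the Ndufa4 protein belongs. Atpif1, Usmg5 and 2010107E04Rik, listed under older symbols, fell outside the names used.

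The respiratory chain passes electrons from NADH, through complex I, and from succinate, through complex II, to coenzyme Q, then through complex III and cytochrome c to complex IV, which reduces oxygen. Complexes I, III and IV pump protons, and complex V uses the gradient to make ATP. Complexes I, III, IV and V combine nuclear subunits with subunits made inside the mitochondrion, whereas complex II is wholly nuclear-encoded and is also an enzyme of the citric acid cycle. Macrophages exposed to bacterial lipopolysaccharide (LPS) are known to shift their metabolism towards glycolysis and to build up succinate.

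The cells were RAW 264.7, an established macrophage line of mouse origin, and gave 12 libraries in 4 groups of 3. Control cells had vehicle alone, PSTO cells 20 uM of an agent the labels call PSTO without giving its full name (the title of the series mentions garlic extract), LPS cells vehicle and then 500 ng/mL LPS, and PSTO+LPS cells PSTO and then LPS. PSTO or vehicle came 30 min ahead of LPS, with harvest at 6 h. Nothing says that the triplicates were separate cultures, so p-values measure the spread between these libraries, which may be technical. In bulk RNA, fewer cells of a kind and less RNA per cell cannot be told apart.

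Libraries held 15817880 to 28625784 reads. Lyz2, the lysozyme gene that marks macrophages, stood at 6273 ± 277 CPM (library-size-scaled counts; SD, n = 3) in control cells and at 4272 ± 30.2 after LPS. All 8 macrophage markers were tested, and LPS called 4 of them higher and 3 lower. Of 12 markers of other cell types, 10 were too low to test, Pecam1 was called nowhere, and Cdh5, an endothelial cadherin gene, was called higher with LPS at 0.742 ± 0.51 CPM in control cells and 2.45 ± 0.69 after LPS; the part of these shifts in the results was not tested. All CPM levels below use TMM scaling, which sets library sizes on the premise that most genes do not differ. A gene was called at an adjusted p under 0.05 (edgeR's quasi-likelihood test, Benjamini-Hochberg over 14505 genes), changes are log2 changes ± SE, and n is 3 libraries in every group. Of the 98 subunit genes, 92 passed the filter on low counts, 79 nuclear and 13 mitochondrial. The others were Ndufs3, Cox7b2 and Cox8c, listed at 0 in all 12 libraries, and Cox6b2, Cox8b and Ndufa4l2, with 12, 6 and 50 reads in all. Ndufs3 encodes a core subunit of complex I, and another annotated gene, Gm12251, matches part of its transcript at 98.6% identity.

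The scaling matters for LPS. TMM factors were 1.17 to 1.21 in libraries without LPS and 0.832 to 0.851 in those with it. As a plain share of reads, nuclear subunits took 0.785% to 0.833% in control cells, 0.816% to 0.838% after PSTO, 0.634% to 0.653% after LPS and 0.683% to 0.687% after both. The median log2 change of all genes with LPS was 0.01 under TMM, -0.14 under upper-quartile scaling and -0.52 under library totals alone, and higher calls made up 52.1%, 41.8% and 21.5% of all calls. With LPS after PSTO these shares were 49.9%, 41.2% and 20.6%. Relative to the median of all genes, the median nuclear subunit stood 0.13 to 0.14 higher with LPS and 0.16 higher with LPS after PSTO under each of 5 scalings. A change of scaling shifts all genes nearly alike, so this agreement was fixed in advance and is no test. Every rise with LPS given below is under TMM: under library totals 0 nuclear subunits were called higher with LPS and 1 with LPS after PSTO.

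**Figure D1:**
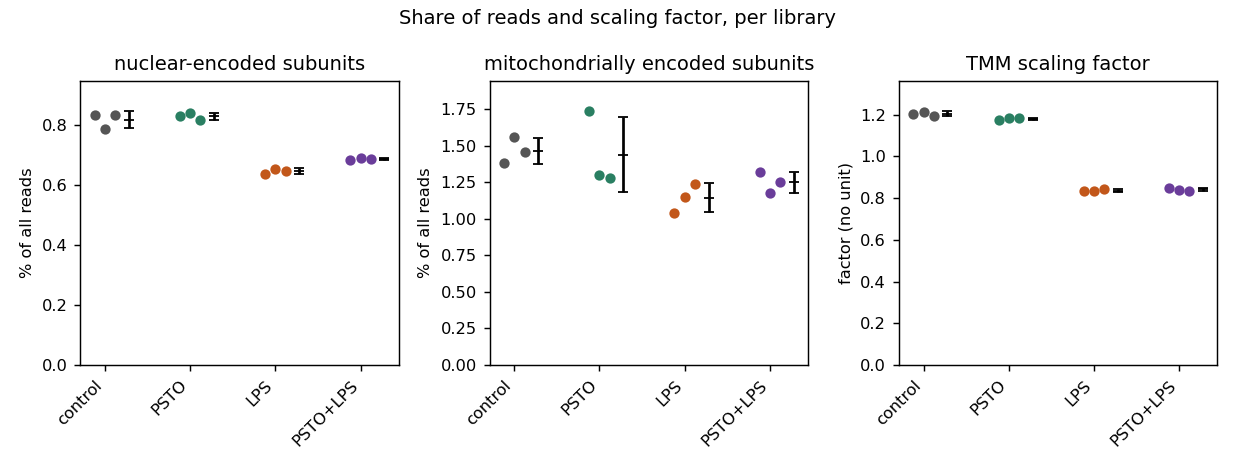
Each point is 1 library, with the group mean ± SD (n = 3), for the share of reads (percent) in nuclear subunits, the share in mitochondrially encoded subunits, and the TMM scaling factor. The nuclear share was at most 0.687% in the LPS-treated libraries and at least 0.785% in the others, and library 1 of PSTO had the highest mitochondrial share, 1.73%.

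Ratios between subunits of the same library do not depend on the scaling. The balance between complexes differed between groups, with complexes III, IV and V gaining on complex I. Summed nuclear complex IV levels divided by those of complex I were 0.883, 0.879 and 0.919 in control cells, 0.965, 1.01 and 0.987 after PSTO, 1.08, 1.03 and 1.06 after LPS and 1.22, 1.20 and 1.16 after both. The groups did not overlap, in that order. Cox4i1 made up 23.9 ± 0.61% of the complex IV sum in control cells, and without it the ratios were 0.680 ± 0.020, 0.738 ± 0.013, 0.798 ± 0.021 and 0.894 ± 0.028.

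Complex III to complex I followed the same order, at 0.450 ± 0.0065, 0.478 ± 0.0061, 0.515 ± 0.0060 and 0.566 ± 0.016, and its groups did not overlap either. Without Uqcrh the means were 0.360 ± 0.010, 0.372 ± 0.0063, 0.410 ± 0.0061 and 0.431 ± 0.013, and control and PSTO libraries overlapped. Complex V stood at 1.43 ± 0.028, 1.505 ± 0.0044, 1.70 ± 0.011 and 1.78 ± 0.032, without overlap, and Atp5b gave 43.1 ± 0.69% of its control sum. Complex II went the other way, at 0.313 ± 0.0098, 0.306 ± 0.0028, 0.287 ± 0.0074 and 0.285 ± 0.018, with overlap between groups. These sums are given without a test.

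**Figure D2:**
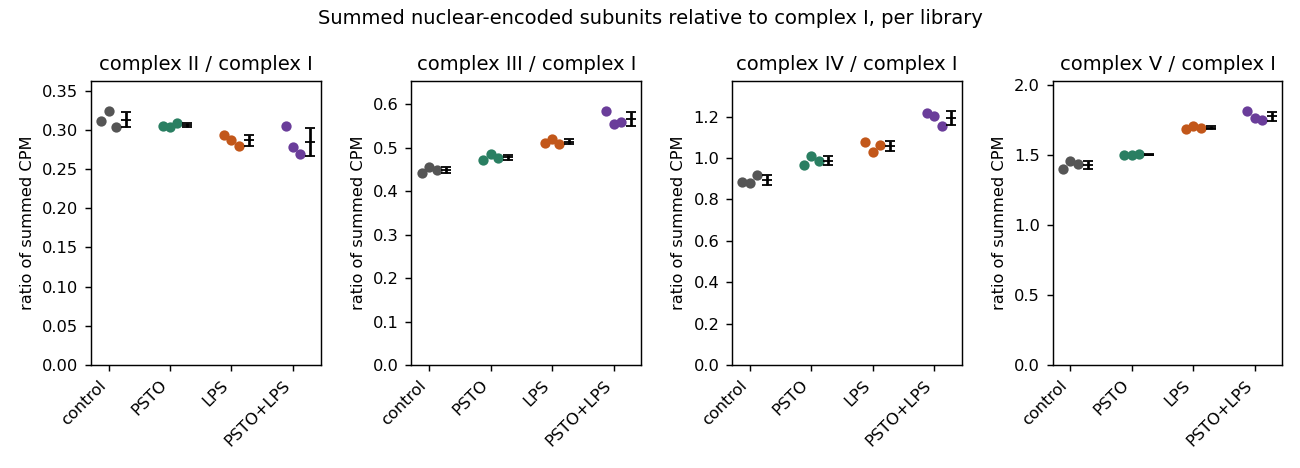
Summed level of the nuclear subunits of complexes II, III, IV and V divided by that of complex I (no unit), 1 point per library with the group mean ± SD (n = 3). The complex IV means run from 0.894 in control to 1.19 in PSTO+LPS with no overlap between groups, and the complex II means from 0.313 to 0.285.

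Gene by gene, LPS called 29 of 79 nuclear subunits higher and 7 lower under TMM, 16 and 18 under upper-quartile scaling, and 0 and 68 under library totals. Of all genes 62.9% were called, 32.8% higher and 30.1% lower, so the called share of the subunits was below the background. Their median log2 change was 0.14, beside 0.01 for all genes. Under TMM, every LPS library lay above every control library for 34.7% of all genes and 41.8% of nuclear subunits. The reverse held for 32.6% and 10.1%, so groups without overlap were common. By complex under TMM, 6 of 35 complex I genes were higher and 3 lower, 2 of 4 complex II genes were lower, and 6 of 9 complex III genes were higher. In complex IV, 10 of 15 were higher and 1 lower, and in complex V 7 of 16 were higher and 1 lower.

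With PSTO already present, LPS called 31 nuclear subunits higher and 4 lower under TMM, 17 and 11 under upper-quartile scaling, and 1 and 60 under library totals, where 59.7% of all genes were called, 29.8% higher and 29.9% lower. Under TMM, every PSTO+LPS library lay above every PSTO library for 32.2% of all genes and 46.8% of nuclear subunits. The reverse held for 32.6% and 6.33%. The comparisons of LPS with and without PSTO share no library. Under TMM, 26 genes were higher in both, of the 29 and the 31, and 3 were lower in both, Atp5s, Ndufs7 and Sdha. How many of all genes were called alike in several comparisons was not counted, so this overlap and those below have no background beside them.

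PSTO alone called 9 nuclear subunits higher and 3 lower under TMM and 5 and 6 under library totals, where 30.6% of all genes were called, 14.8% higher and 15.8% lower. Without library 1 of PSTO 5 were called in all, and without its library 2, 6. Added before LPS, PSTO called 13 higher and 2 lower under TMM, 20 and 0 under upper-quartile scaling and 15 and 2 under library totals (10 to 19 in all with 1 library left out, 10 without library 1 of LPS), where 38.3% of all genes were called, 16.6% higher and 21.7% lower. Complex IV held 4 of the 9 and 7 of the 13 genes called higher. Every PSTO library lay above every control library for 21.4% of all genes and 17.7% of nuclear subunits, and below for 22.9% and 11.4%. For PSTO+LPS against LPS these shares were 20.9% and 29.1% above, and 26.5% and 7.59% below. The 6 genes higher in both were Atp5d, Cox4i1, Cox6b1, Cox7b, Cox8a and Uqcrh. The PSTO comparisons share no library with each other, but each shares a group with each LPS comparison. The interaction, which is the LPS effect after PSTO minus that without, called 3 nuclear subunits higher and 0 lower, where 17.1% of all genes were called, 6.96% higher and 10.1% lower (by DESeq2 and limma-voom 3 each in all, and 3 at an unadjusted p under 0.05). Without library 1 or 2 of LPS it called 0 of them, and without library 1 or 3 of PSTO+LPS 1.

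**Figure D3:**
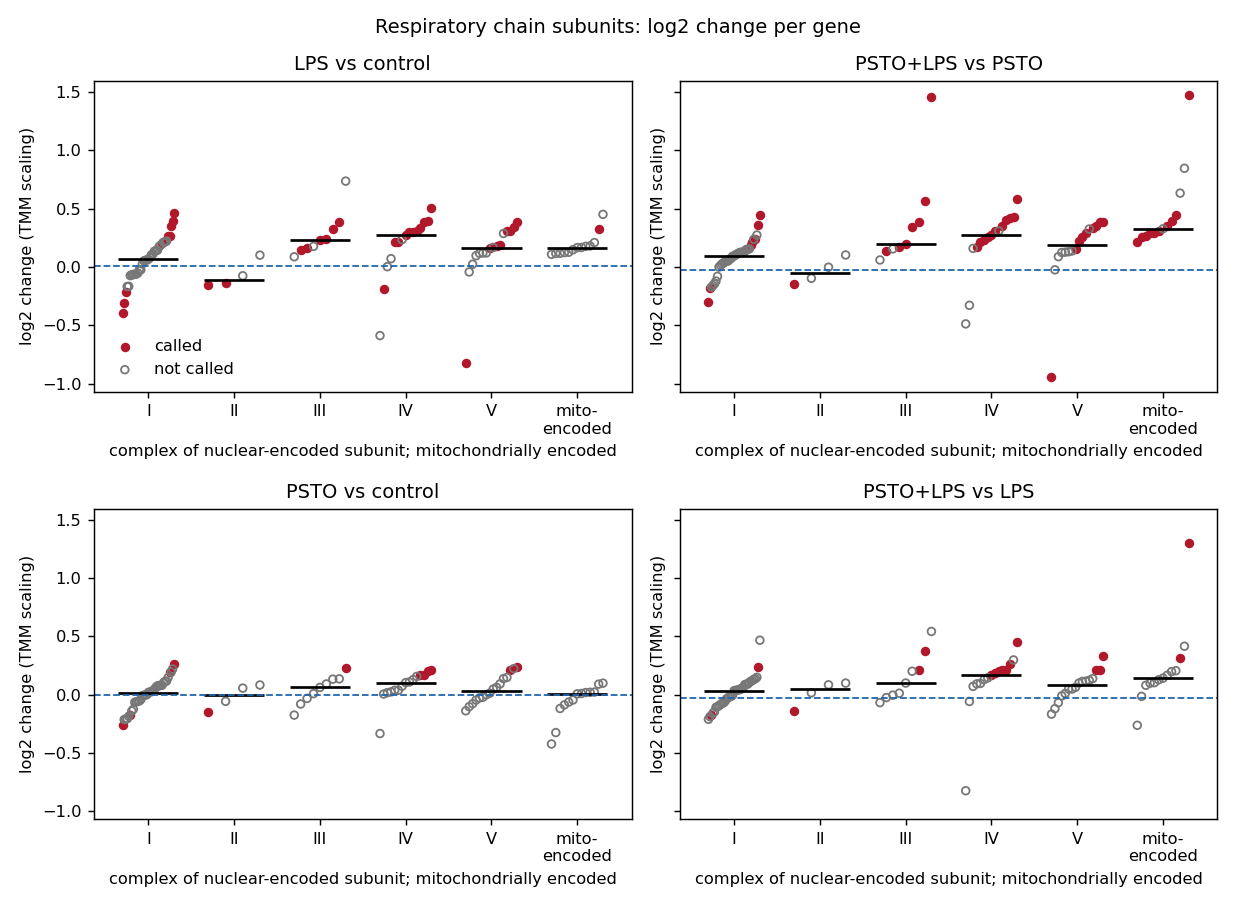
Log2 change of each tested subunit gene under TMM scaling, by complex for nuclear genes and together for mitochondrially encoded genes, in 4 comparisons. Filled points were called at an adjusted p under 0.05, black bars are medians and the dashed line is the median of all genes; complex IV medians lie at 0.27 in both LPS comparisons, while under library totals the median nuclear subunit lies at -0.38 and -0.35.

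Complex I is the NADH dehydrogenase. Its nuclear core subunits carry the flavin and the iron-sulfur clusters, and accessory subunits surround them. This textbook division was applied after the values were seen, and the difference between its classes was not tested. With LPS under TMM, 0 of 6 tested core genes were higher and 2 lower (median -0.12), and 6 of 29 accessory genes were higher and 1 lower (median 0.11), beside 32.8% and 30.1% of all genes. With LPS after PSTO, 2 of 6 core genes were lower (median -0.13), where 29.9% of all genes were lower. Of 29 accessory genes 5 were higher (median 0.12), where 29.8% of all genes were higher. Under library totals no accessory gene was called higher with LPS alone.

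Ndufs7, an iron-sulfur core subunit near the coenzyme Q site, stood at 53.9, 49.3 and 53.1 CPM in control cells, 40.7, 43.4 and 51.3 after PSTO, 38.7, 43.4 and 36.7 after LPS and 31.9, 37.9 and 40.5 after both. Every control library was above every LPS-treated library. It fell by 0.40 ± 0.10 log2 units with LPS (adjusted p = 0.00141) and by 0.30 ± 0.10 with LPS after PSTO (adjusted p = 0.0142). The second call was lost without library 3 of PSTO (or library 1 of PSTO+LPS).

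Ndufs8, another iron-sulfur core subunit, fell with LPS by 0.21 ± 0.07 (adjusted p = 0.0172), from 107 ± 11 to 92.3 ± 2.3 CPM, a call lost without library 3 of control or of LPS. Ndufv2, also of the core, fell with LPS after PSTO by 0.18 ± 0.08 (adjusted p = 0.0497), a call lost under 16 of 21 alternatives. Ndufv1, the NADH-binding flavoprotein, had group means of 68.1 ± 5.4, 71.9 ± 3.7, 65.2 ± 3.9 and 67.9 ± 3.6 CPM and was called nowhere.

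Among accessory subunits, Ndufa1 stood at 29.2, 27.7 and 30.2 CPM in control cells, 32.3, 27.8 and 26.6 after PSTO, 35.8, 41.3 and 43.4 after LPS and 32.7, 42.2 and 43.4 after both. The LPS libraries were above every library without LPS. It rose by 0.46 ± 0.11 with LPS (adjusted p = 0.000811) and by 0.45 ± 0.11 with LPS after PSTO (adjusted p = 0.0014). Ndufs4, whose loss in mice causes a fatal brain disease, rose by 0.35 ± 0.08 (adjusted p = 0.00063) and 0.36 ± 0.08 (adjusted p = 0.000596). Ndufb6, a membrane-arm subunit, rose with LPS by 0.39 ± 0.10 (adjusted p = 0.00194).

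PSTO alone moved Ndufb6 and Ndufc2, both of the membrane arm, in opposite directions. Ndufb6 rose by 0.26 ± 0.10 (adjusted p = 0.048), a call lost under 15 of 21 alternatives, and Ndufc2 fell by 0.26 ± 0.08 (adjusted p = 0.0202), a call lost without library 1 of control or of PSTO. Ndufa9, an accessory subunit, fell with PSTO in LPS-treated cells by 0.18 ± 0.06 (adjusted p = 0.0325), a call lost under 13 of 21 alternatives.

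Ndufb3, another accessory subunit, stood at 38.0, 34.2 and 36.9 CPM in control cells, 32.6, 32.3 and 29.5 after PSTO, 29.8, 27.0 and 31.1 after LPS and 30.4, 34.2 and 33.0 after both. Every control library was above every PSTO and every LPS library. It fell with LPS by 0.31 ± 0.08 (adjusted p = 0.00275), whereas LPS after PSTO gave 0.05 ± 0.08 (adjusted p = 0.663). The interaction was 0.36 ± 0.12 (adjusted p = 0.0426) and was lost under 8 of 20 alternatives.

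Complex II, succinate dehydrogenase, has 4 subunits. Sdha, the flavoprotein that oxidises succinate, was the single subunit gene called lower in all 4 comparisons under TMM. It stood at 227, 216 and 221 CPM in control cells, 198, 193 and 205 after PSTO, 204, 195 and 197 after LPS and 183, 181 and 175 after both. PSTO and LPS libraries overlapped, both lay below control, and the PSTO+LPS libraries lay below all others. Sdha fell by 0.15 ± 0.05 with LPS (adjusted p = 0.00761) and by 0.15 ± 0.05 with LPS after PSTO (adjusted p = 0.0122). It fell by 0.15 ± 0.05 with PSTO (adjusted p = 0.0168) and by 0.15 ± 0.05 with PSTO before LPS (adjusted p = 0.0207). The last call was lost under 10 of 21 alternatives, and that for LPS after PSTO without library 1 or library 3 of PSTO.

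Of the other complex II genes, Sdhd alone was called, in 1 of the comparisons. Sdhb, the iron-sulfur subunit, had group means of 92.1 ± 5.2, 88.5 ± 5.6, 87.4 ± 7.9 and 88.3 ± 2.8 CPM and was called nowhere. Sdhc, a membrane anchor, rested at 75.6 ± 1.6, 80.1 ± 3.5, 81.1 ± 4.6 and 85.9 ± 3.7 CPM and was called nowhere. Sdhd, the other anchor, fell with LPS by 0.14 ± 0.05 (adjusted p = 0.0286), a call lost without library 1 or library 3 of LPS. The ratio of Sdha to Sdhc within a library, which no scaling touches, was 2.92 ± 0.029, 2.49 ± 0.16, 2.46 ± 0.13 and 2.09 ± 0.051 in the same order of groups. The mean of Sdhc rose in that order, and ratios to Sdhb and Sdhd were not taken. From control to LPS, Sdha went from 76.3 ± 2.1 to 68.6 ± 1.6 CPM per kb of transcript. Sdhd fell as well, from 106 ± 3.6 to 96.1 ± 1.5, so the ratio to Sdhc does not stand for all partners.

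Complex III takes electrons from coenzyme Q. Uqcrh, its hinge protein, which helps bind cytochrome c, stood at 155, 133 and 159.9 CPM in control cells, 179.9, 179 and 166 after PSTO, 164, 185 and 181 after LPS and 226, 228 and 231 after both. PSTO+LPS libraries were above every other library, and PSTO and LPS libraries above control. Uqcrh rose by 0.24 ± 0.07 with LPS (adjusted p = 0.00333) and 0.38 ± 0.07 with LPS after PSTO (adjusted p = 4.66e-05). It rose by 0.23 ± 0.07 with PSTO (adjusted p = 0.0115) and 0.37 ± 0.07 with PSTO before LPS (adjusted p = 0.000174). The LPS call was lost without library 2 of control and under upper-quartile scaling.

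Uqcrfs1 is the Rieske iron-sulfur protein, an electron carrier of complex III. It stood at 90.3, 85.5 and 87.3 CPM in control cells, 86.2, 84.8 and 86.2 after PSTO, 103, 111 and 115 after LPS and 127, 119 and 134 after both. Control and PSTO overlapped, and every LPS-treated library was above them. LPS raised it by 0.32 ± 0.06 (adjusted p = 6.71e-05) and, after PSTO, by 0.57 ± 0.06 (adjusted p = 7.21e-08). The interaction was 0.24 ± 0.08 (adjusted p = 0.0464) and was lost under 7 of 20 alternatives.

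Cyc1, the haem-bearing cytochrome of complex III, rose with LPS by 0.15 ± 0.06 (adjusted p = 0.0279) under TMM and had the opposite sign under upper-quartile scaling. That call was lost under 9 of 21 alternatives: upper-quartile scaling, no filter, and without library 2 or 3 of control, any library of PSTO, or library 1 or 2 of LPS. Uqcrc1, a core protein of the complex, stood at 6.40, 3.27 and 4.96 CPM in control cells, 4.29, 4.63 and 4.11 after PSTO, 5.40, 14.6 and 4.58 after LPS and 20.2, 6.04 and 9.18 after both. Libraries 2 of LPS and 1 of PSTO+LPS were far above the others. Its change with LPS after PSTO was 1.45 ± 0.41 (adjusted p = 0.00469), the largest of the called nuclear subunits, and was 0.81 (adjusted p = 0.0699) without library 1 of PSTO+LPS.

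Complex IV, cytochrome c oxidase, held 4 of the 5 genes called higher in all 4 comparisons under TMM: Cox4i1, Cox6b1, Cox7b and Cox8a. Cox4i1, the widely expressed form of a regulatory subunit, stood at 372, 327 and 367 CPM in control cells, 384, 426 and 417 after PSTO, 445, 442 and 429 after LPS and 495, 512 and 509 after both. The groups did not overlap, in that order. Cox4i1 rose by 0.30 ± 0.05 with LPS (adjusted p = 5.11e-05) and 0.30 ± 0.05 with LPS after PSTO (adjusted p = 5.53e-05). It rose by 0.20 ± 0.05 with PSTO (adjusted p = 0.00557) and 0.20 ± 0.05 with PSTO before LPS (adjusted p = 0.00449).

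Cox6b1, which faces the intermembrane space, stood at 97.3, 93.0 and 106 CPM in control cells, 113, 113 and 107 after PSTO, 126, 132 and 129 after LPS and 151, 152 and 146 after both. Every PSTO+LPS library was above all others. It rose by 0.38 ± 0.05 with LPS (adjusted p = 5.83e-06) and by 0.17 ± 0.05 with PSTO (adjusted p = 0.0271). Cox8a and Cox7b, small structural subunits, rose with PSTO by 0.16 ± 0.06 (adjusted p = 0.0376) and 0.21 ± 0.06 (adjusted p = 0.00588). The PSTO calls of Cox4i1, Cox6b1, Cox7b, Cox8a and Uqcrh were each lost without at least 1 library: Cox7b without library 1 of PSTO, Cox4i1 without library 2 of control or library 2 or 3 of PSTO, and Uqcrh without library 2 of control or library 1 or 2 of PSTO. For Cox6b1 and Cox8a any PSTO library, and library 1 or 2 of control, sufficed.

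Cox7a2, the widely expressed form of a small structural subunit, stood at 74.0, 70.0 and 79.8 CPM in control cells, 83.2, 85.2 and 76.4 after PSTO, 100.4, 113 and 103 after LPS and 122, 122 and 123 after both. Every LPS-treated library was above every other library. It rose by 0.50 ± 0.06 with LPS (adjusted p = 1.04e-06) and 0.58 ± 0.06 with LPS after PSTO (adjusted p = 1.75e-07). Cox6c, another structural subunit, rose by 0.39 ± 0.06 (adjusted p = 4.88e-06) and 0.42 ± 0.06 (adjusted p = 2.64e-06).

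Cox7a2l, a relative of Cox7a2, encodes a factor that joins complexes III and IV into supercomplexes. It stood at 117, 96.3 and 107 CPM in control cells, 114, 120.4 and 112 after PSTO, 92.0, 93.0 and 97.3 after LPS and 140.4, 127 and 119 after both. Every PSTO+LPS library was above every LPS library, and 1 control library lay within the LPS range. It fell with LPS by 0.19 ± 0.07 (adjusted p = 0.0286), a call lost without library 1 of control or library 1 or 2 of LPS. PSTO before LPS raised it by 0.45 ± 0.07 over LPS alone (adjusted p = 5.66e-05), a call kept under all 21 alternatives. The interaction was 0.34 ± 0.10 (adjusted p = 0.0225), lost without library 1 or 2 of LPS or library 1 of PSTO+LPS. The ratio of Cox7a2l to Cox7a2 was 1.44 ± 0.13, 1.42 ± 0.046, 0.893 ± 0.063 and 1.06 ± 0.092 in the same order of groups.

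**Figure D4:**
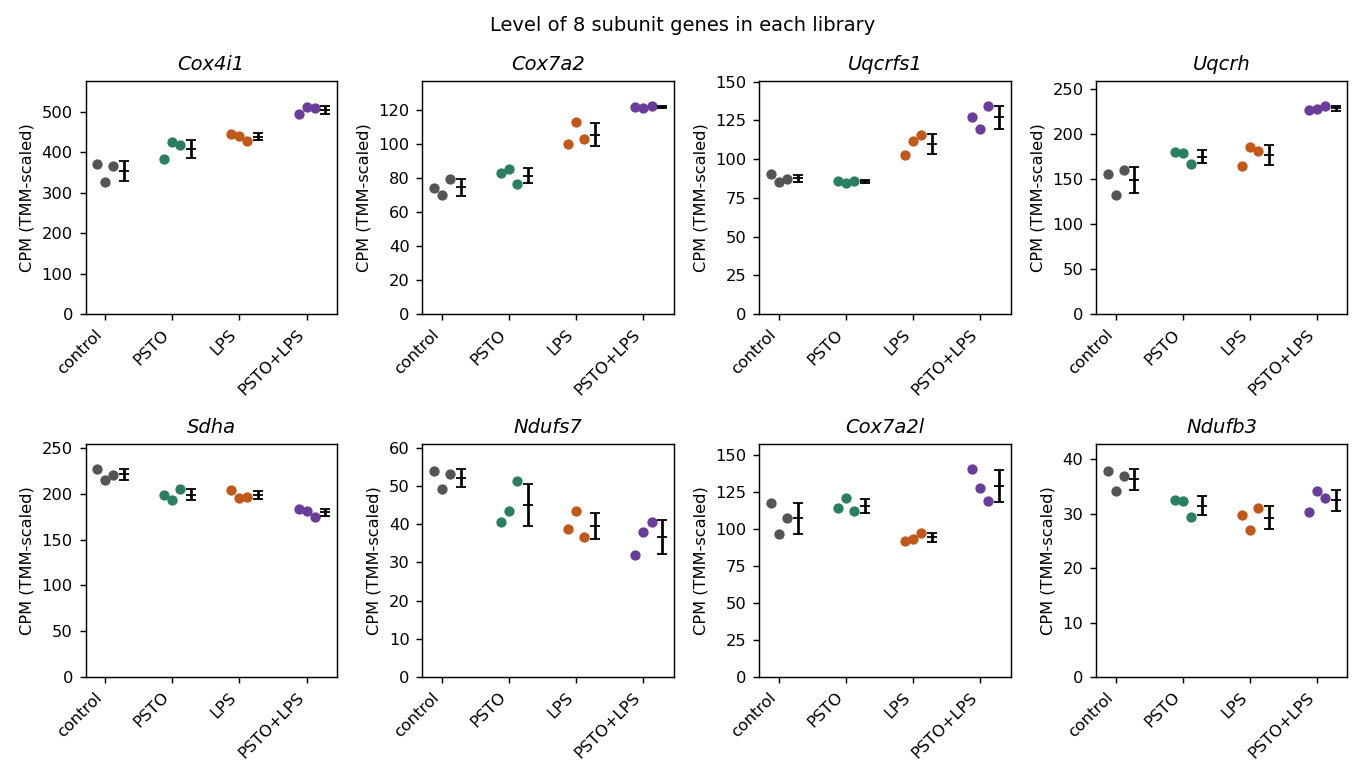
TMM-scaled CPM of 8 subunit genes, 1 point per library with the group mean ± SD (n = 3). Sdha and Ndufs7 are lowest after both agents and Cox4i1, Cox7a2, Uqcrfs1 and Uqcrh highest there; under library totals no nuclear subunit was called higher with LPS alone.

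Restricted forms of complex IV subunits were low. Cox6a2 and Cox7a1, the heart and muscle forms, stood at 9.30 ± 2.4 and 1.31 ± 0.11 CPM in control cells, and Cox4i2, a form known from lung, at 0.665 ± 0.32. None of these 3 was called in any of the 5 tests. The common form Cox6a1 rose with LPS by 0.33 ± 0.08 (adjusted p = 0.000836), from 146 ± 18 to 184 ± 7.7 CPM. Ndufa4 rose with LPS by 0.27 ± 0.06 (adjusted p = 0.000904) and after PSTO by 0.21 ± 0.06 (adjusted p = 0.00732). AA467197, which encodes a paralogue of Ndufa4, was listed at 0 in all 12 libraries; how overlapping or repeated matches were counted is not stated, so this and the other zeros say nothing firm of expression.

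Complex V, the ATP synthase, was led by Atp5b, its catalytic beta subunit, at 1022, 1005 and 1044 CPM in control cells, 1082, 1061 and 1062 after PSTO, 1309, 1383 and 1318 after LPS and 1385, 1394 and 1408 after both. Every LPS-treated library was above every other library. It rose by 0.38 ± 0.04 with LPS (adjusted p = 1.85e-08) and 0.39 ± 0.04 with LPS after PSTO (adjusted p = 2.11e-08). Atp5d, the central-stalk delta subunit, rose with PSTO by 0.23 ± 0.06 (adjusted p = 0.00534) and with PSTO before LPS by 0.21 ± 0.06 (adjusted p = 0.0093). The first call was lost without library 2 of control or of PSTO, and the second without library 1 of LPS or library 3 of PSTO+LPS.

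Atp5g1, a gene for the membrane ring subunit, rose with PSTO before LPS by 0.33 ± 0.10 (adjusted p = 0.0175), a call lost without library 1 of LPS or library 2 of PSTO+LPS. Parts of its transcript, 14.4% of the length, match 17 other annotated genes at 97% identity or more. Those genes held 214439 reads, against 11484 for Atp5g1, and the part of such matches in its values was not tested. Atp5s, named for the synthase but known as an assembly factor, fell with LPS by 0.83 ± 0.30 (adjusted p = 0.0233) from a low 3.76 ± 0.76 CPM. That call was lost without library 1 of control or library 1 or 2 of LPS.

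Promoters are shown for 5 of the 6 genes called in all 4 comparisons, since these moved together or, for Sdha, the other way. They run from 250 bases before to 50 after the gene's start in RefSeq's table for build GRCm38.p6, which is not the build of the counts; Cox4i1 is named only. Capitals mark matches on either strand to the NRF1 motif, the ETS letters CCGGAAGT (bound by GABP) and the YY1 letters AAGATGGCG.
Sdha, chr13:74350191-74350490, minus strand: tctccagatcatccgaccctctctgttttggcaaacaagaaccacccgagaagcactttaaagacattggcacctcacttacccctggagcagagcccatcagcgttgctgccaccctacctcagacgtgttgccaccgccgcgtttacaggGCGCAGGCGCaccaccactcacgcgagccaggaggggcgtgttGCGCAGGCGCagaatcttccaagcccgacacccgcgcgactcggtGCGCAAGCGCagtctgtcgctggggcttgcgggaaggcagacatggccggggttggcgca
Uqcrh, chr4:116075021-116075320, minus strand: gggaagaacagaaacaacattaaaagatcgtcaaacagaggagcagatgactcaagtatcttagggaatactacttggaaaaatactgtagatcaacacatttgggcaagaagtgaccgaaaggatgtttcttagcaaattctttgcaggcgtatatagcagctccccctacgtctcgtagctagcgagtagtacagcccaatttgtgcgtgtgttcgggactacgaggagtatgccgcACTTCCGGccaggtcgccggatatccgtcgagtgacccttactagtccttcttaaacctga
Cox8a, chr19:7217567-7217866, minus strand: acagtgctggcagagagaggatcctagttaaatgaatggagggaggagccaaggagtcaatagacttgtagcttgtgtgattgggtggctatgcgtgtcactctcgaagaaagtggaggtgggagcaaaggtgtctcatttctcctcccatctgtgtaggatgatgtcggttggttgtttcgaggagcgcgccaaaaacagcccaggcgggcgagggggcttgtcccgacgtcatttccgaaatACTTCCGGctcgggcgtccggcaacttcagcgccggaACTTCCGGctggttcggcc
Cox6b1, chr7:30626065-30626364, minus strand: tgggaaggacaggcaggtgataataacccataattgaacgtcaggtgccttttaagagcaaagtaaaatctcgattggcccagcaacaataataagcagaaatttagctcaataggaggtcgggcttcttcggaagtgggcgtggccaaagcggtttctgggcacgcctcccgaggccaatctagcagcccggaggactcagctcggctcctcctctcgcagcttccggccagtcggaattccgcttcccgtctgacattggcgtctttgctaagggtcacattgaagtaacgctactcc
Cox7b, chrX:106015450-106015749, plus strand: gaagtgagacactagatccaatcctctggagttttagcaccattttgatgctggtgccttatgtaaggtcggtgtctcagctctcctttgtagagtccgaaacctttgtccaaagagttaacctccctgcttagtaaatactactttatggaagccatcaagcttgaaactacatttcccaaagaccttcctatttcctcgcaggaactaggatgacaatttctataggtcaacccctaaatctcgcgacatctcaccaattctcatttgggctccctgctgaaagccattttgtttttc

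Sdha holds 3 NRF1 matches, which do not overlap one another. Cox8a holds 2 ETS matches and Uqcrh 1, and none of the letters is in the windows of Cox6b1 and Cox7b. Of the 85 nuclear subunits, 69 had an entry. A gene was counted if any of its windows held the letters. NRF1 letters were in 17 of them (24.6%), against 5.19% of 27025 genes with an entry. ETS letters were in 5 (7.25%) against 4.31%, and YY1 letters in 7 (10.1%) against 1.64%. By complex, NRF1 letters were in 7 of 32 genes of complex I, 2 of 3 of complex II, 1 of 5 of complex III, 1 of 14 of complex IV and 6 of 15 of complex V. A match describes letters, not binding.

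The mitochondrially encoded subunits belong to the cores of complexes I, III and IV and to the membrane part of complex V, and are cut from long transcripts of both strands of mitochondrial DNA. Their share of reads was 1.38% to 1.56% in control cells, 1.28% to 1.73% after PSTO, 1.04% to 1.24% after LPS and 1.17% to 1.32% after both. Library 1 of PSTO stood apart at 1.73%, beside 1.30% and 1.28% in the other PSTO libraries.

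Per kb of transcript, control levels ran from 3718 ± 249.9 CPM for mt-Co1, the catalytic subunit of complex IV, to 2.17 ± 0.32 for mt-Nd3 of complex I. A high set of 7 genes (mt-Co1, mt-Cytb, mt-Nd1, mt-Nd2, mt-Nd5, mt-Nd6 and mt-Nd4) lay at 449.9 ± 28 CPM per kb or above, and the other 6 at 26.0 ± 1.2 or below. Of these 6, mt-Co2, mt-Co3, mt-Atp6, mt-Nd3 and mt-Nd4l each have a copy annotated as another gene with at least 99% identity over at least 90% of their length. Reads from such pairs could be split or set aside in counting, so the values of these 5 genes are uncertain. The high set is not free of copies. A copy of mt-Nd4 is identical over 63.6% of the gene's length and held 1044 reads, against 188753 for mt-Nd4. A copy of mt-Co1 matches its full length at 97.6% identity and held 328 reads, against 1718280 for mt-Co1. The copy of mt-Co3 held 5379 reads over 12 libraries, against 4786 for mt-Co3 itself. mt-Atp8, the other low gene, overlaps mt-Atp6, and mt-Nd6 lies on the strand opposite to the others, so its reads depend on a strand setting that is not stated.

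**Figure D5:**
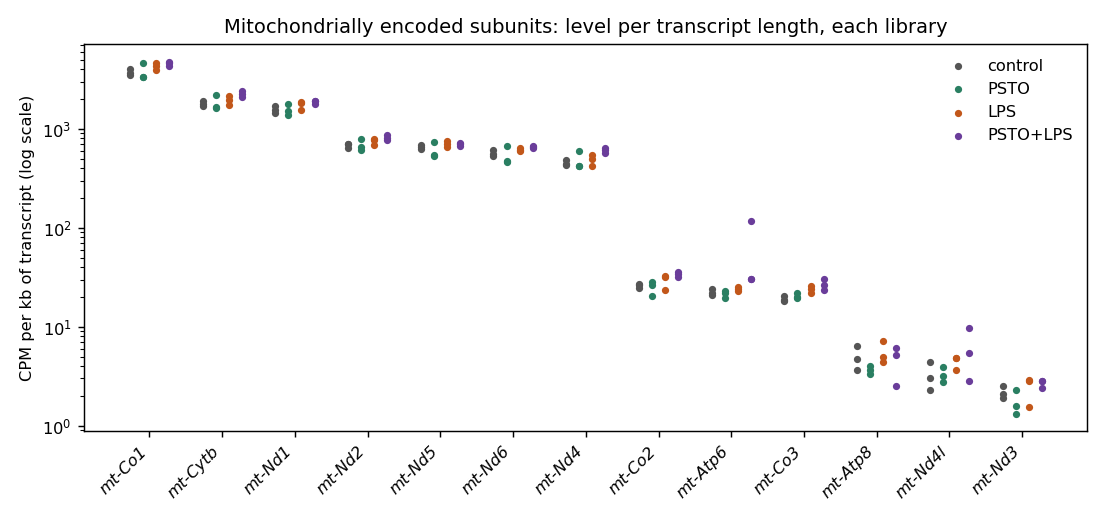
CPM per kb of transcript (log axis) of the 13 mitochondrially encoded subunits, 1 point per library, coloured by group. mt-Co1 lies highest and mt-Nd3 lowest, and library 3 of PSTO+LPS stands apart for mt-Atp6.

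LPS called 1 of the 13 genes higher, mt-Co3 at 0.33 ± 0.11 (adjusted p = 0.0162), with a median of 0.17, where 32.8% of all genes were higher, while upper-quartile scaling called 0 and library totals 8 lower. The mt-Co3 call was lost without library 1 or 2 of control or library 2 of LPS. Without library 1 of LPS 5 were called, and DESeq2 called 1 and limma-voom 2. With LPS after PSTO, 10 of 13 were higher (median 0.33) under TMM, where 29.8% of all genes were higher, 3 under upper-quartile scaling, and 1 higher and 3 lower under library totals. Without library 1 of PSTO the count was again 10. Every PSTO+LPS library lay above every PSTO library for 4 of the 13 (30.8%), beside 32.2% of all genes.

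mt-Co1 stood at 5427, 6174 and 5631 CPM in control cells, 7149, 5154 and 5141 after PSTO, 6146, 6666 and 7099.7 after LPS and 7399, 6711 and 7195 after both. Library 1 of PSTO lay within the range of the LPS-treated libraries and the other PSTO libraries below control. It rose with LPS after PSTO by 0.29 ± 0.09 (adjusted p = 0.0102; 0.49 without library 1 of PSTO, adjusted p = 7.52e-07), and the change with LPS alone was 0.21 ± 0.09 (adjusted p = 0.0531). mt-Cytb, the cytochrome of complex III, rose with LPS after PSTO by 0.29 ± 0.09 (adjusted p = 0.0114; 0.48 without library 1 of PSTO, adjusted p = 1.74e-05). Both calls were lost under upper-quartile scaling.

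PSTO alone called 0 of 13 by edgeR, DESeq2 and limma-voom, where edgeR called 30.6% of all genes, with 0 at an unadjusted p under 0.05. Without library 1 of PSTO, 3 were called lower. PSTO before LPS called 2 of 13 higher, mt-Nd4 and mt-Atp6, where 16.6% of all genes were higher, and 5 genes in the fit without library 1 of PSTO. mt-Nd4, a proton-pumping subunit of complex I, was at 586, 684 and 759 CPM after LPS and 877, 792 and 848 after both, without overlap (0.31 ± 0.11, adjusted p = 0.0268), a call lost under 5 of 21 alternatives.

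mt-Atp6, of the complex V membrane part, was at 17.3, 16.6 and 15.5 CPM after LPS and 20.6, 20.5 and 80.2 after both. Library 3 of PSTO+LPS stood far above all others. The change of 1.30 ± 0.34 (adjusted p = 0.00542) became 0.32 (adjusted p = 0.0503) without it. The interaction called 0 of 13 by edgeR, DESeq2 and limma-voom, with 1 at an unadjusted p under 0.05, and 6 higher without library 1 of PSTO.

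The nuclear median log2 change minus the mitochondrial median was -0.02 for LPS, -0.19 for LPS after PSTO, 0.03 for PSTO and -0.08 for PSTO before LPS. The nuclear minus mitochondrial mean log2 CPM of single libraries had a pooled SD within groups of 0.12. That SD is a spread of single libraries, not the error of these differences of medians. Leaving out 1 library at a time moved these over -0.07 to 0.07, -0.31 to -0.10, 0.00341 to 0.16 and -0.11 to -0.01, so the first has no steady sign. Without library 1 of PSTO the second was -0.31 and the third 0.15. The ratio of all nuclear to all mitochondrially encoded levels was 0.559 ± 0.051, 0.587 ± 0.094, 0.566 ± 0.043 and 0.550 ± 0.034 across control, PSTO, LPS and PSTO+LPS, and the groups overlapped. The PSTO libraries read 0.478, 0.644 and 0.639, with library 1 the lowest of all 12.

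Genes that build and regulate the chain were listed separately. Of 51 tested assembly factors besides Atp5s, LPS called 14 higher and 17 lower (median -0.02) and LPS after PSTO 7 and 15 (median -0.10) under TMM, where 62.9% and 59.7% of all genes were called. The first share is near that background and the second below it. Cox18, which inserts a core subunit of complex IV, rose with LPS by 1.41 ± 0.10 (adjusted p = 2.86e-10), and Cox15, of haem A synthesis, by 1.10 ± 0.07 (adjusted p = 5.26e-11). Coa5, a complex IV assembly factor, stood at 114 ± 6.1 CPM in control cells, 236 ± 11 after LPS and 151 ± 5.4 after both, with an interaction of -0.66 ± 0.08 (adjusted p = 6.72e-06). Tmem126b, a complex I assembly factor, fell with LPS by 1.01 ± 0.13 (adjusted p = 1.84e-06), and Uqcc3 of complex III by 1.14 ± 0.15 (adjusted p = 2.02e-06).

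Of 9 tested transcriptional regulators of respiratory genes, 6 rose and 2 fell with LPS under TMM, beside 32.8% and 30.1% of all genes. Ppargc1b, a coactivator of mitochondrial genes, fell in all 4 comparisons, from 8.65 ± 0.88 CPM in control cells to 4.84 ± 0.58 after PSTO, 5.94 ± 0.68 after LPS and 1.94 ± 0.25 after both. Perm1, a regulator known from muscle, rose in all 4, from 13.97 ± 1.8 to 30.4 ± 4.4, 50.8 ± 3.0 and 70.8 ± 1.9 CPM. Gabpa, the DNA-binding subunit of GABP, rose with LPS by 0.67 ± 0.06 (adjusted p = 6.64e-09), and Yy1 rose with PSTO by 0.35 ± 0.05 (adjusted p = 5.11e-05). Ppargc1a was too low to test.

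Of 16 tested genes of mitochondrial transcription and DNA maintenance, LPS called 6 higher and 4 lower under TMM, a share near the 62.9% of all genes. Tfam, which packages mitochondrial DNA, rose by 0.40 ± 0.09 (adjusted p = 0.000692), and Polrmt, the mitochondrial RNA polymerase, fell by 0.31 ± 0.08 (adjusted p = 0.00384). Of 20 genes of mitochondrial RNA processing, 8 were higher and 4 lower, also near that share. Pnpt1, a mitochondrial RNA-degrading enzyme, went from 59.6 ± 4.2 to 359 ± 6.3 CPM (2.59 ± 0.07, adjusted p = 3.58e-17).

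Of 20 electron carrier and coenzyme Q genes, LPS called 9 higher and 5 lower under TMM, near the 62.9% of all genes. Cycs, cytochrome c itself, rose with LPS by 0.82 ± 0.06 (adjusted p = 2.26e-10) and with PSTO by 0.24 ± 0.06 (adjusted p = 0.00315). Of 6 tested carriers and uncoupling proteins, 2 were higher and 3 lower. Ucp2, an inner-membrane carrier, fell with LPS from 1056 ± 29.5 to 590.1 ± 7.4 CPM, and Slc25a5, an ADP/ATP carrier, rose by 0.43 ± 0.04 (adjusted p = 5.43e-09).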

How the data were processed

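RNA from 12 libraries of RAW 264.7 cells was analysed from the authors' deposited table of raw read counts per gene, which are whole numbers with differing totals (15817880 to 28625784). Per the submitters' processing notes, the tools HISAT and DESeq2 and the build mm39 were named. Read counter, annotation release and strand setting: not given in the sources used here. Counts were fitted in R 4.3.3 with edgeR 4.0.16 (filterByExpr by group with a minimum count of 10, TMM, quasi-likelihood fit and test, 1 mean per group over all libraries), which kept 14505 genes. Other fits used DESeq2 1.42.0, limma-voom (limma 3.58.1), other scalings and filters, and each library left out. The fit was tested on simulated data in which few genes changed, balanced in direction, so that test does not bear on the premise of TMM.

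The members, lists and tests were chosen with earlier results of these data known. Genes were named as follows: the mitochondrially encoded subunits, a panel of subunits, untested members and, in each comparison, up to 4 called nuclear subunits with the greatest rise and up to 4 with the greatest fall, at a mean of 5 CPM or more. From the pathway lists up to 3 called genes per comparison could be named, of which a selection is given. A gene that these choices would name is not reported here. Atp5b, Atp5s, Cox6b1 and Atp5a1 were named after their values were seen. Transcript lengths, copies and overlaps come from a GENCODE annotation of GRCm38, with no conversion of coordinates.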

Additional observations from a re-analysis of the deposited data

Results flagged for a closer look

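The interaction test of edgeR (quasi-likelihood, adjusted over all genes, log2 scale) called 3 of 79 tested nuclear subunit genes, where it called 17.1% of all genes. They were Cox7a2l at 0.345 (adjusted p = 0.0225), Ndufb3 at 0.358 (adjusted p = 0.0426) and Uqcrfs1 at 0.243 (adjusted p = 0.0464). Of 20 alternatives, 3 lost the first call, 8 the second and 7 the third. The nuclear subunits at an unadjusted p under 0.05 also numbered 3. The same test called 8 genes of the pathway lists, to be set beside that 17.1%. By list these were 1 of 51 assembly factors, 1 of 16 genes of mitochondrial transcription and DNA maintenance, and 2 of 9 transcriptional regulators. The RNA processing list had 1 higher and 1 lower of 20, electron carriers 1 of 20, and carriers and uncoupling proteins 1 of 6. It was positive for Lrpprc, which stabilises mitochondrial messenger RNA (0.257, adjusted p = 0.0379), Polg, the mitochondrial DNA polymerase (0.321, adjusted p = 0.0163), and Ucp2 (0.245, adjusted p = 0.0035). It was negative for Coa5 (-0.656, adjusted p = 6.72e-06), Coq10b (-0.447, adjusted p = 0.011), Elac2 (-0.299, adjusted p = 0.0242), Esrra (-0.577, adjusted p = 0.000972) and Perm1 (-0.644, adjusted p = 0.00332).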

How the results depend on the processing

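Of 114 subunit calls under TMM, 44 were kept under every alternative run gene by gene and 70 were lost under at least 1. Library totals were not among those alternatives, so the 44 were not put to that scaling. Scaling by library totals, and leaving out mitochondrial genes with near-identical copies, were chosen after seeing the data. Library totals called 68 nuclear and 8 mitochondrial subunits for LPS vs control and 61 and 4 for PSTO+LPS vs PSTO. All 68 and all 8 were lower, where 2240 of all genes were called higher and 8188 lower. Of the 61, 1 was higher and 60 lower, and of the 4, 1 was higher and 3 lower. All genes there gave 2087 higher and 8042 lower calls. Nuclear calls under TMM were mostly higher, 29 against 7 lower and 31 against 4 lower. For LPS vs control, mitochondrial calls (1 under TMM) were 0 with upper-quartile scaling, 4 with no filter, 2 with limma-voom, 3 with only the groups compared and 0 without copies. For PSTO+LPS vs PSTO, upper-quartile scaling gave 3 mitochondrial calls. For PSTO+LPS vs LPS (2 under TMM), DESeq2 gave 1, only the groups compared 6, and leaving out copies 1. With no filter the interaction called 1 nuclear and 2 mitochondrial subunits. Upper-quartile scaling reversed Cyc1 (-0.0057), Grsf1 (-0.031) and Slc25a3 (-0.00680) for LPS vs control. The cause of these shifts was not tested.

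Leaving out 1 library at a time moved the mitochondrial calls over 0 to 5 (LPS vs control), 0 to 3 (PSTO vs control), 0 to 5 (PSTO+LPS vs LPS) and 0 to 6 (interaction). It moved the nuclear calls over 5 to 16 (PSTO vs control) and 0 to 4 (interaction), and the nuclear minus mitochondrial median over 0.00341 to 0.16 (PSTO vs control) and -0.31 to -0.065 (interaction). With the replicate number as a block, the interaction called 1 nuclear subunit in place of 3. Same-numbered libraries did not deviate together (correlations -0.03 to 0.05, 0 of 18 over 0.1), so the numbers were not taken to pair them. With 3 libraries per group, small changes may pass uncalled.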

Other observations

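Partner subunits of a complex differed widely in listed level per length. How reads of overlapping or repeated sequence were counted is not stated, and whether the low values below come from it was not tested. In control cells Atp5b stood at 534 ± 10.3 CPM per kb and Atp5a1, the gene of its alpha partner, at 8.36 ± 0.082. Uqcrc2 stood at 61.8 ± 2.8 CPM per kb and Uqcrc1, the other core protein gene of complex III, at 2.95 ± 0.95. Ndufb2 stood at 0.649 ± 0.14, where the median of 35 complex I genes was 51.4. Lengths here are those of 1 annotated transcript per gene, 4371 bases for Ndufb2, and the part of that choice in the values was not tested. Across 79 nuclear subunits, the log2 change had a Spearman rho with transcript length of -0.30 for LPS vs control and -0.26 for PSTO vs control. It was weaker for PSTO+LPS vs PSTO (-0.20) and PSTO+LPS vs LPS (-0.14), and positive for the interaction (0.13). These values describe genes that share libraries and depth.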
